A study of Mus musculus with 9 samples.

Results

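The proteasome genes described here are the 46 rows of the count table, of 11046 genes in all, whose symbol starts with Psma, Psmb, Psmc, Psmd, Psme, Psmf or Psmg followed by a digit. By role, 14 encode subunits of the core particle, 17 encode subunits of the regulatory cap and 3 belong to the immunoproteasome (Psmb10, Psme1 and Psme2). A further 3 encode other regulators (Psme3, Psme4 and Psmf1) and 7 encode assembly chaperones. The remaining 2, Psmc3ip and Psme3ip1, match the naming pattern as partners of a subunit gene but encode no subunit, and are described apart. Psmb8, Psmb9, Psmb11, Psma8 and Psme2b have no row in the table and are not analysed here, so the immunoproteasome is seen through 3 of the 5 genes usually read for it.

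The proteasome degrades proteins that carry ubiquitin chains. Its barrel-shaped core is built of rings of alpha and beta subunits, and the beta subunits Psmb5, Psmb6 and Psmb7 hold the proteolytic sites. The regulatory cap binds ubiquitin chains, removes them, unfolds the substrate with a ring of ATPases (Psmc genes) and threads it into the core, while the lid (a set of Psmd genes) holds the deubiquitinase. In immune cells, and in other cells exposed to interferon, Psmb8, Psmb9 and Psmb10 can replace the constitutive catalytic subunits, and the activator made of Psme1 and Psme2 can dock on the core. These changes are known for their effect on the peptides presented on MHC class I molecules.

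RNA came from cultured mouse tumour lines, with 3 libraries (A, B and C) for each of 3 lines, all labelled wild type by genotype and left untreated. By their labels, 482N1 is a lung non-small-cell carcinoma line and B16F10-BrM a melanoma line with mutant BRAF, and both were kept in DMEM. The BRAF status was not checked here. E0771-BrM, a triple-negative breast cancer line, was kept in RPMI 1640 with HEPES, so line and medium cannot be told apart in any comparison with it. BrM marks a brain-metastatic derivative, and the series title ties the transcriptomes to the electrophysiological effects of brain metastases. The labels leave unstated whether the 3 libraries of a line are separate cultures, so SDs, SEs and p-values measure the spread between libraries, which may be technical.

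Library totals ran from 7332390 to 9293348 reads, and all 46 genes passed the filter on low counts, with 17 to 7459 reads per gene and library. Levels are read counts scaled to library size by TMM (normalised CPM), and in bulk RNA a change in the share of expressing cells and a change per cell cannot be told apart. The melanoma label was matched by its markers: the 5 of 11 listed melanocyte markers in the table summed to between 24630 and 25484 CPM in B16F10-BrM. The same 5 summed to at most 28.1 CPM in 482N1 and 162 CPM in E0771-BrM, with Dct higher in libraries A and C than in B of both lines. Of the lung list 4 of 12 markers were in the table, with 209 to 245 summed CPM in 482N1 and at most 38.1 in the other lines. Nkx2-1 and the surfactant genes have no row, so the lung label was not checked against them. The 4 of 10 mammary markers in the table summed to 50.5 to 66 CPM in E0771-BrM and to 132 to 150 in 482N1, so they did not set the breast line apart.

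As a group, proteasome transcripts were lowest in 482N1, intermediate in B16F10-BrM and highest in E0771-BrM. The 44 proteasome genes summed to 5719, 5702 and 5623 CPM in libraries A, B and C of 482N1, to 8708, 8851 and 8791 in B16F10-BrM and to 11536, 12193 and 11721 in E0771-BrM. Libraries of different lines never overlapped in this sum, which held 0.508 ± 0.00925%, 0.929 ± 0.012% and 1.25 ± 0.0267% of all counts in the 3 lines (SD, n = 3). The 18S ribosomal RNA gene Rn18s took 11.6 to 13.1% of counts in 482N1 and 6.4 to 8.36% in the other lines, and its removal before scaling changed no call among the 46 genes.

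Gene by gene, 33 of the 46 were higher in B16F10-BrM than in 482N1, and 6 lower, at an adjusted p below 0.05, a threshold that 77.8% of all 11037 tested genes passed (38% higher, 39.9% lower). E0771-BrM against 482N1 gave 40 higher and 2 lower, against 78.1% of all genes called (37.7% higher, 40.4% lower). In E0771-BrM against B16F10-BrM, 28 were higher and 8 lower, against 73.7% (37.2% higher, 36.5% lower). Libraries of the lines compared did not overlap for 39 of the 46 genes in the first comparison (33 higher, 6 lower), where 78.7% of all genes did not overlap (38.4% higher, 40.3% lower). In E0771-BrM against 482N1 this held for 42 (39 higher, 3 lower; 78.5% of all genes, 38% and 40.5%), and in E0771-BrM against B16F10-BrM for 36 (27 higher, 9 lower; 75.5%, 38.2% and 37.3%). The share of proteasome genes called in either direction was thus near the background in B16F10-BrM against 482N1 and in E0771-BrM against B16F10-BrM. It lay further above the background in E0771-BrM against 482N1, which was not tested. In each comparison the direction leaned to higher. The median log2 difference of the 46 genes was 0.57, 0.91 and 0.42 in the same order, beside medians over all tested genes of -0.04, -0.04 and 0.02. The comparisons with 482N1 share its 3 libraries, and those with the other lines share theirs, so they are not independent of each other.

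With the stricter question of a difference beyond 1.5-fold, 20 of the 46 genes were called higher and 0 lower in B16F10-BrM against 482N1, where 48.9% of all genes were called (23.1% higher and 25.8% lower). For E0771-BrM against 482N1 these counts were 28 and 0 (48.4% of all genes, 23.2% and 25.2%). E0771-BrM against B16F10-BrM gave 15 higher and 4 lower (42.9%, 21.8% and 21.1%). The 4 lower genes were the lid subunits Psmd8 and Psmd14 and the core assembly chaperones Psmg1 and Psmg4. When library B alone stood for 482N1 and for E0771-BrM, the fit called 9 core, 13 cap and 1 immunoproteasome gene in B16F10-BrM against 482N1, 12, 17 and 3 in E0771-BrM against 482N1, and 10, 15 and 3 in E0771-BrM against B16F10-BrM. Of all genes it called 7682, 7175 and 7300, against 8592, 8622 and 8131 with all libraries. In its last panel, for E0771-BrM against B16F10-BrM, the plot of log2 differences by gene shows Psmd8, Psmd14, Psmg1 and Psmg4 to the left of 0. Most other members lie to the right there.

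**Figure D1:**
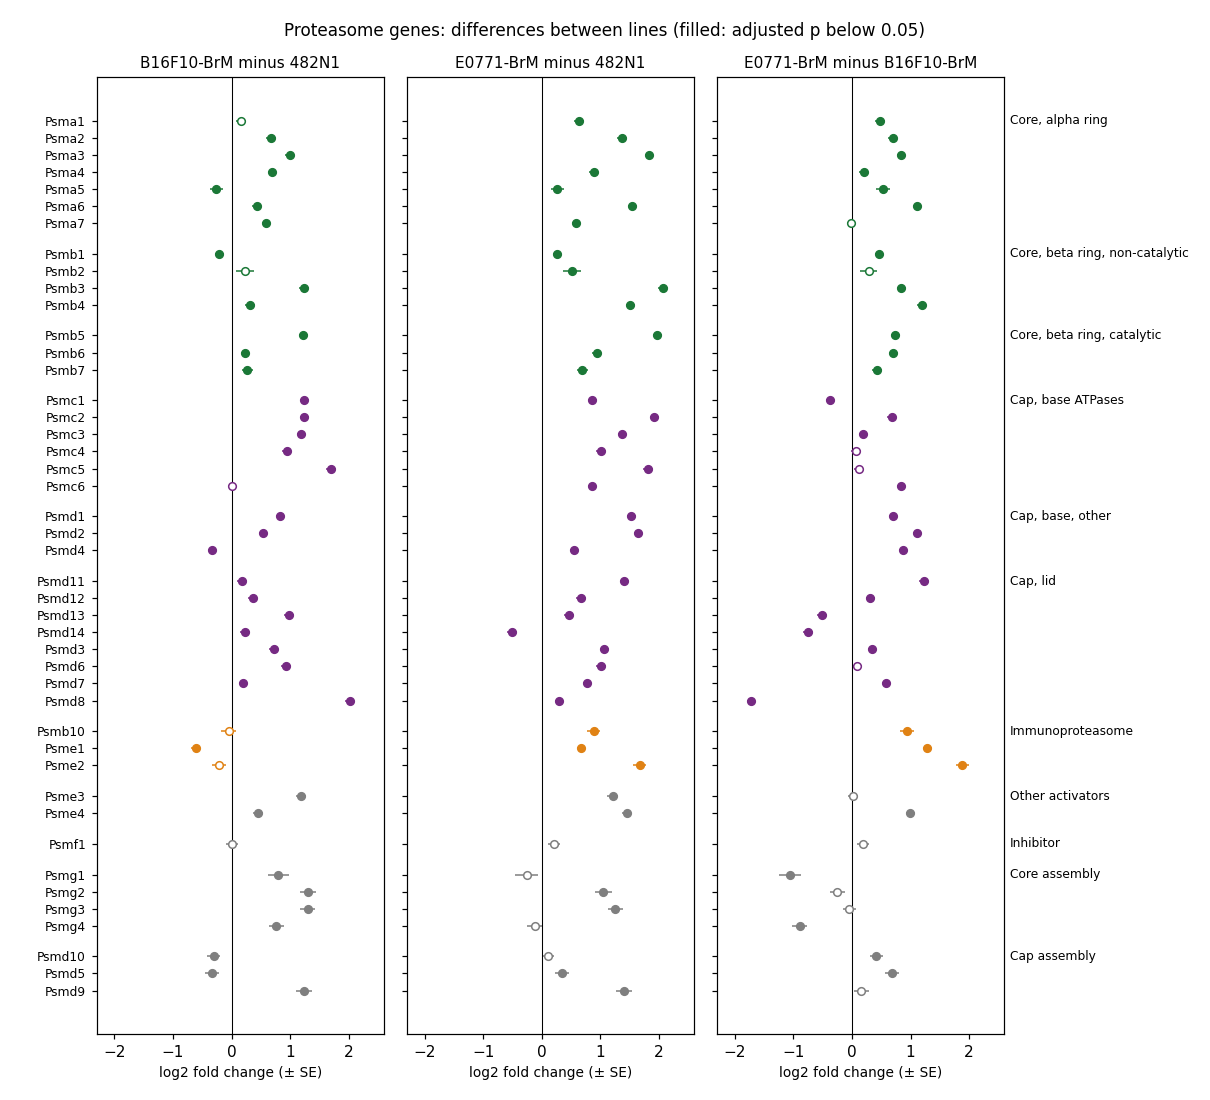
Log2 difference between lines for each of the 44 proteasome genes, without Psmc3ip and Psme3ip1 (horizontal axis, log2 fold change from the edgeR fit, bars ± SE), grouped by role, in 3 panels for the 3 pairs of lines. Filled points have an adjusted p below 0.05; 32, 39 and 28 of these genes were called higher in the first to the last panel, and Psmd8 is the highest lid gene of the first panel and the lowest of the 44 in the last.

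Core subunit genes followed the same order of lines. Their 14 genes summed to 2424 ± 63 CPM in 482N1, 3493 ± 91.6 CPM in the melanoma line and 5280 ± 205 CPM in the breast line (SD, n = 3). In E0771-BrM against 482N1 all 14 were called higher (median log2 difference 0.91), in E0771-BrM against B16F10-BrM 12 were higher and 0 lower (median 0.61), and in B16F10-BrM against 482N1 10 were higher and 2 lower (median 0.37). Of all tested genes, 78.1%, 73.7% and 77.8% were called in these comparisons in either direction. Beyond 1.5-fold the numbers of core genes called, all of them higher, were 8, 6 and 4, where 23.2%, 21.8% and 23.1% of all genes were called higher.

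Among the alpha subunits, which form the outer rings and the gate of the barrel, Psma3 had 172, 175 and 175 CPM in 482N1, 355, 313 and 366 CPM in B16F10-BrM and 609, 605 and 639 CPM in E0771-BrM. Its libraries fell into 3 separate levels, with log2 differences of 0.99 ± 0.07 for B16F10-BrM and 1.83 ± 0.07 for E0771-BrM against 482N1 (adjusted p = 3.62e-17 and 2.92e-27). Psma6 had 104, 105 and 96.7 CPM in 482N1, 139, 140 and 134 in B16F10-BrM and 295, 308 and 290 in E0771-BrM. Most of its difference lay between E0771-BrM and the others, at 1.11 ± 0.07 on the log2 scale against B16F10-BrM (adjusted p = 1.04e-18) and 0.43 ± 0.08 between B16F10-BrM and 482N1 (adjusted p = 1.86e-06). Psma4 had 244, 252 and 221 CPM in 482N1 and 376, 390 and 388 in B16F10-BrM, followed by 426, 465 and 435 in E0771-BrM. Here the order of sizes was the other way round: the log2 difference was 0.69 ± 0.07 between B16F10-BrM and 482N1 (adjusted p = 3.61e-12) and 0.20 ± 0.07 between E0771-BrM and B16F10-BrM (adjusted p = 0.00987), and the latter was not called without library B of E0771-BrM (adjusted p = 0.0635, range over 19 alternatives 0.00647 to 0.0635). Psma7 stood at the level of B16F10-BrM in E0771-BrM, with a log2 difference of -0.01 ± 0.07 between them (adjusted p = 0.894).

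Psma5 was the alpha subunit gene with the least stable result. It had 40.6, 41.5 and 44.5 CPM in 482N1, 37.4, 30.6 and 37.6 in B16F10-BrM and 57.2, 40 and 55.5 in E0771-BrM. Library B of E0771-BrM lay below every library of 482N1, while A and C lay above them. The log2 difference from 482N1 was -0.26 ± 0.12 in B16F10-BrM (adjusted p = 0.0424) and 0.27 ± 0.11 in E0771-BrM (adjusted p = 0.0315). The first call was lost without library B or C of 482N1 or library B of B16F10-BrM (adjusted p = 0.0562, 0.125 and 0.222). The second was lost without library A or B of 482N1 or library A or C of E0771-BrM (adjusted p = 0.0847, 0.0658, 0.207 and 0.155), and it turned to -0.06 (adjusted p = 0.804) when library B alone stood for each of these lines. Over 19 alternatives the adjusted p ran from 0.0223 to 0.222 for the first and from 0.00122 to 0.804 for the second.

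Of the beta subunits without a proteolytic site, Psmb3 had 111, 95.9 and 83.5 CPM in 482N1, 211, 240 and 231 in B16F10-BrM and 414, 440 and 370 in E0771-BrM. At 2.07 ± 0.09 on the log2 scale (4.2-fold, adjusted p = 1.7e-24), its difference between E0771-BrM and 482N1 was the largest of the 46 genes in that comparison. Psmb4 had 307, 264 and 280 CPM in 482N1, 316, 363 and 378 in B16F10-BrM and 780, 895 and 746 in E0771-BrM. Its E0771-BrM libraries stood 1.19 ± 0.08 above B16F10-BrM on the log2 scale (adjusted p = 2.35e-18), while those of B16F10-BrM were 0.31 ± 0.08 above 482N1 (adjusted p = 0.000339). Psmb1 went the other way between the DMEM-grown lines, with a log2 difference of -0.21 ± 0.07 in B16F10-BrM against 482N1 (adjusted p = 0.00677, 0.00263 to 0.19 over 19 alternatives).

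The 3 constitutive catalytic subunits were lowest in 482N1 and highest in E0771-BrM, by very different amounts. Psmb5, which carries the chymotrypsin-like site, had 89.5, 87.3 and 90.9 CPM in 482N1, 219, 198 and 208 in B16F10-BrM and 350, 359 and 338 in E0771-BrM. That was 2.34-fold for B16F10-BrM and 3.91-fold for E0771-BrM against 482N1 (log2 differences 1.22 ± 0.08 and 1.97 ± 0.08, adjusted p = 6.2e-20 and 6e-28). Psmb6, with the caspase-like site, had 215, 188 and 219 CPM, then 249, 242 and 238, then 376, 434 and 381 in the same order of lines, and Psmb7, with the trypsin-like site, 102, 108 and 99, then 140, 116 and 115, then 183, 137 and 180. In these genes the B16F10-BrM libraries lay just above those of 482N1, at log2 differences of 0.23 ± 0.07 and 0.27 ± 0.09 (adjusted p = 0.00535 and 0.0103). The Psmb6 call was lost without library B of 482N1 (adjusted p = 0.0542, range over 19 alternatives 0.000464 to 0.0542) and the Psmb7 call without library A of B16F10-BrM (adjusted p = 0.124, range 0.00239 to 0.124). E0771-BrM was 0.94 ± 0.07 above 482N1 for Psmb6 and 0.69 ± 0.09 for Psmb7 on the log2 scale (adjusted p = 8.19e-16 and 2.64e-08). For Psmb7, library B of E0771-BrM overlapped B16F10-BrM, and the log2 difference between these lines, 0.43 ± 0.09 (adjusted p = 9.06e-05), fell to 0.14 (adjusted p = 0.259, range over 19 alternatives 4.21e-07 to 0.259) when library B alone stood for E0771-BrM and 482N1. RefSeq lists pseudogenes of Psma5, Psmb5, Psmb6 and Psmb7, and the counting tool is not given in the sources used here, so reads could have been split between copies of these 4 genes.

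Promoter windows were read from RefSeq (build GRCm38.p6), running from 250 bases before to 50 bases after each start site, and 39 of the 46 genes had one, with 43 windows in all. The expression files are on another build, GRCm39, so the windows give sequence only. The antioxidant response element, to which the proteasome-inducing factors Nfe2l1 and Nfe2l2 bind, was searched on both strands as TGACNNNGC and as TGAGNNNGC. The first was in 6 of 43 windows (14%; 12.4% of 32851 windows in the RefSeq table and 14.3% of windows of genes in the count table) and the second in 14 of 43 (32.6%; 17.6% and 19.9%). Psmb5, the catalytic gene that differed most between lines, held 1 match to the first form in its window. Psmb6, which differed less, also held 1 match to this form, and Psmb7 had no window. Whether the element goes with the differences between lines was not tested. The Psmb5 sequence runs from 250 bases before to 30 bases after the start site, with the match in capitals. It is printed 5′ to 3′ on the strand of the gene.

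Psmb5 promoter, chr14:54617966-54618245, minus strand: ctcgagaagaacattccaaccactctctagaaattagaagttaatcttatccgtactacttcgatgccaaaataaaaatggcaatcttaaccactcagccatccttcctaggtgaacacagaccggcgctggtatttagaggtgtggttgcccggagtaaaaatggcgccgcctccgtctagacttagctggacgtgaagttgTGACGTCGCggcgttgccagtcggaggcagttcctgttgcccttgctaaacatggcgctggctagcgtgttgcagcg

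Cap subunit genes also rose from 482N1 to the other lines, but they were less uniform among themselves than core genes between E0771-BrM and B16F10-BrM. Their 17 genes summed to 2747 ± 70 CPM in 482N1, 4692 ± 102 CPM in the melanoma line and 5593 ± 170 CPM in E0771-BrM (SD, n = 3). Against 482N1, 15 were higher and 1 lower in B16F10-BrM (median log2 difference 0.82), and 16 higher and 1 lower in E0771-BrM (median 1.01). Between E0771-BrM and B16F10-BrM 10 were higher and 4 lower (median 0.31). The shares of all tested genes called in either direction were 77.8%, 78.1% and 73.7% in the same order of comparisons. For E0771-BrM against B16F10-BrM, the SD of the log2 difference across cap genes was 0.74, against 0.34 for the 14 core genes. Whether core and cap differ in this was not tested.

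The 6 ATPases of the base unfold substrates and open the gate of the core. Compared with 482N1, 5 of them were higher in B16F10-BrM and all 6 in E0771-BrM, with medians of 1.21 and 1.19 on the log2 scale. Over all tested genes, 38% and 37.7% were called higher in these comparisons. Psmc5 had 57.8, 56.9 and 49.7 CPM in 482N1, 172, 185 and 177 in B16F10-BrM and 185, 222 and 172 in E0771-BrM. The libraries of the latter lines overlapped, with a log2 difference of 0.12 ± 0.08 between them (adjusted p = 0.196; called when library B alone stood for E0771-BrM and 482N1, 0.32, adjusted p = 0.00473, range over 19 alternatives 0.00473 to 0.973), and lay 1.70 ± 0.09 and 1.81 ± 0.09 above 482N1 (adjusted p = 2.18e-22 and 2.18e-23). Psmc2 had 81.5, 73.3 and 71.9 CPM in 482N1, 182, 178 and 176 in B16F10-BrM and 292, 285 and 280 in E0771-BrM, a separate level in each line. Psmc1 had 263, 328 and 292 CPM in 482N1, 732, 721 and 631 in B16F10-BrM and 517, 531 and 559 in E0771-BrM. It was the ATPase gene that was lower in E0771-BrM than in B16F10-BrM, by -0.37 ± 0.07 on the log2 scale (adjusted p = 1.53e-05). Psmc6 had 225, 237 and 255 CPM in 482N1 and 231, 241 and 251 in B16F10-BrM, which overlapped, against 418, 430 and 447 in E0771-BrM. Its log2 differences were 0.01 ± 0.07 between the first lines (adjusted p = 0.887) and 0.84 ± 0.07 between E0771-BrM and B16F10-BrM (adjusted p = 6.75e-15). Psmc3 was 0.18 ± 0.07 higher in E0771-BrM than in B16F10-BrM (adjusted p = 0.0148), a call lost without library C of B16F10-BrM or library B of E0771-BrM (adjusted p = 0.0509 and 0.12, range over 19 alternatives 0.00742 to 0.12).

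The other base subunits bind ubiquitin chains and shuttle proteins or scaffold the cap. All 3 were highest in E0771-BrM. Psmd2, a scaffold, had 184, 190 and 185 CPM in 482N1, 269, 275 and 270 in B16F10-BrM and 553, 599 and 599 in E0771-BrM, 3.13-fold above 482N1 in the last (log2 difference 1.65 ± 0.07, adjusted p = 5.04e-26). The large scaffold gene Psmd1 had 200, 202 and 193 CPM, then 358, 334 and 360, then 556, 562 and 601, again without overlap. The ubiquitin receptor gene Psmd4 was the cap gene that was lower in B16F10-BrM than in 482N1, at -0.33 ± 0.07 on the log2 scale (adjusted p = 3.08e-05), and it was 0.54 ± 0.07 higher in E0771-BrM (adjusted p = 1.06e-09).

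The 8 lid genes gave the most uneven picture of the roles between E0771-BrM and B16F10-BrM (SD of the log2 difference across genes 0.91). Set against 482N1, all 8 were higher in B16F10-BrM and 7 in E0771-BrM, yet between E0771-BrM and B16F10-BrM 4 were higher and 3 lower. In these comparisons 77.8%, 78.1% and 73.7% of all tested genes were called in either direction. Psmd8 had 141, 131 and 122 CPM in 482N1, 518, 547 and 534 in B16F10-BrM and 161, 167 and 156 in E0771-BrM. Its libraries in B16F10-BrM stood far above all others, 4.05-fold over 482N1 (log2 difference 2.02 ± 0.07, adjusted p = 7.83e-29), while E0771-BrM was 1.23-fold over 482N1 (0.29 ± 0.07, adjusted p = 0.000458). E0771-BrM was 3.3-fold lower than B16F10-BrM for this gene (log2 difference -1.72 ± 0.07, adjusted p = 3.87e-26). Within each library, Psmd8 had 49.4 to 55.7% of the counts of its lid partner Psmd7 in 482N1 and 36 to 38.6% in E0771-BrM, but 179 to 184% in B16F10-BrM. Such a ratio compares lines for the same pair of genes and does not depend on library scaling.

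Psmd11 showed a different line as the odd one. It had 65.4, 67.5 and 62.9 CPM in 482N1, 78.8, 68.8 and 74.5 in B16F10-BrM and 180, 164 and 177 in E0771-BrM. The log2 difference of E0771-BrM was 1.41 ± 0.08 from 482N1 and 1.23 ± 0.08 from B16F10-BrM (adjusted p = 9.26e-21 and 1.02e-18). Between B16F10-BrM and 482N1 it was 0.18 ± 0.08 (adjusted p = 0.0474), and this call was lost in 11 of 19 alternatives (adjusted p 0.00936 to 0.324). Leaving out any library but B of 482N1 or B of B16F10-BrM was enough to lose it, with adjusted p from 0.05 to 0.197.

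Psmd14, the deubiquitinase of the lid, was the cap gene that was lower in E0771-BrM than in both other lines. It had 86.2, 89.8 and 90.1 CPM in 482N1, 109, 99.2 and 105 in B16F10-BrM and 66.4, 56.9 and 64 in E0771-BrM, so that no libraries of different lines overlapped. The log2 differences of E0771-BrM were -0.51 ± 0.09 from 482N1 and -0.74 ± 0.09 from B16F10-BrM (adjusted p = 8.72e-07 and 8.71e-11). B16F10-BrM was 0.23 ± 0.08 above 482N1 (adjusted p = 0.00986), which was not called without library A of B16F10-BrM (adjusted p = 0.0501, range over 19 alternatives 0.00147 to 0.0877). Relative to Psmd7 in the same library, Psmd14 had 34.8 ± 1.4% of the counts in 482N1, 35.6 ± 2.41% in the melanoma line and 14.3 ± 1.88% in the breast line (SD, n = 3).

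Psmd13 and Psmd3, structural subunits of the lid, again ordered the lines differently. Psmd13 had 135, 114 and 109 CPM in 482N1, 225, 268 and 214 in B16F10-BrM and 152, 179 and 164 in E0771-BrM, with B16F10-BrM highest (E0771-BrM against B16F10-BrM -0.52 ± 0.09 on the log2 scale, adjusted p = 8.63e-07). Psmd3 had 122, 136 and 114 CPM, then 215, 194 and 202, then 265, 249 and 262, with E0771-BrM highest. Psmd6, Psmd7 and Psmd12 were higher in both lines than in 482N1, with log2 differences from 0.20 to 1.01. The smallest, Psmd7 in B16F10-BrM, lost its call in 1 of 19 alternatives (log2 difference 0.15 when library B alone stood for 482N1 and E0771-BrM). The plot of lid genes by library shows Psmd8 and Psmd13 with B16F10-BrM on top, Psmd14 with E0771-BrM at the bottom and most of the others with E0771-BrM on top.

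**Figure D2:**
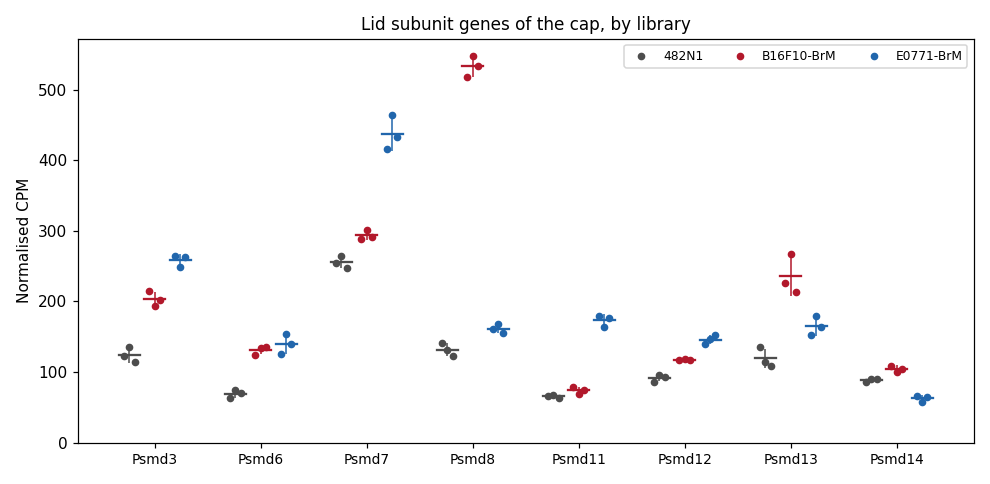
Normalised CPM (linear axis from 0) of the 8 lid genes in each library, by line; points are libraries, horizontal lines means and vertical bars SD (n = 3). The B16F10-BrM libraries of Psmd8 lie between 518 and 547 CPM and those of the other lines between 122 and 167 CPM.

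A further motif was counted in promoters of both cap and core genes. The letters CCGGAAG, the core of the site of ETS family factors, were searched on both strands. They occurred in 17 of the 43 windows (39.5%), against 8.86% of all RefSeq windows and 19.2% of windows of genes in the count table. By class they occurred in 10 of 15 cap windows (66.7%) and in 1 of 12 core windows (8.33%), a difference that was not tested. The CCAAT box was in 14 of 43 windows (32.6%; 37.4% of all windows and 38.1% of those of genes in the count table), 6 of them among the 12 core windows and 4 among the 15 cap windows. None of the motifs searched contains another, and a match describes the letters and not a bound site. The windows below are those of cap genes with different orders of lines: Psmc2, with its own level in each line, Psmd11, highest in E0771-BrM, and Psmd8, highest in B16F10-BrM. Capitals mark CCGGAAG, read as CTTCCGG on the printed strand, and in Psmc2 also CCAAT, while the Psmd8 window held none of the motifs searched. Psmc2 has a second start site, whose window also holds CCGGAAG. Other cap genes highest in B16F10-BrM were mixed: the windows of Psmc1 and Psmd13 held CCGGAAG and that of Psmd14 did not. Whether the motif goes with the order of lines was not tested.

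Psmc2 promoter, chr5:21785025-21785304, plus strand: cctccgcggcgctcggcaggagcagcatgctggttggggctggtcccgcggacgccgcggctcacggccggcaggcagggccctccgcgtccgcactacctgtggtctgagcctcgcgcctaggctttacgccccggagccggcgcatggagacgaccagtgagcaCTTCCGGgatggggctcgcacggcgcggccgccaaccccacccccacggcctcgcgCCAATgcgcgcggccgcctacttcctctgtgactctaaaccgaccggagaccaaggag

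Psmd11 promoter, chr11:80428365-80428644, plus strand: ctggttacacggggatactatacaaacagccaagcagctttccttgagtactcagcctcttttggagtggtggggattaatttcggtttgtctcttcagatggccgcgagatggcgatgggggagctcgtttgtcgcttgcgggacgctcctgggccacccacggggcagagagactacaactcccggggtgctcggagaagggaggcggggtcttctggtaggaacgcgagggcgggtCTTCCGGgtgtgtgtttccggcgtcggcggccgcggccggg

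Psmd8 promoter, chr7:29180644-29180923, minus strand: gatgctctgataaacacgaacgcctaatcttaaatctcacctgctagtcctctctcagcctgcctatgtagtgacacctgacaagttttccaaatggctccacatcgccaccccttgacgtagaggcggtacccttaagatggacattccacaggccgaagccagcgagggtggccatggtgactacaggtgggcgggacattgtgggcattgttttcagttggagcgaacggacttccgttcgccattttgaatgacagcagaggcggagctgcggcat

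The 3 measured immunoproteasome genes did not follow the order of the core and cap. They were highest in E0771-BrM, as the core and cap genes were in sum, but B16F10-BrM was at or below 482N1 for each. The assembly genes, by contrast, summed to about 200 CPM in both B16F10-BrM and E0771-BrM. Some genes of other classes, among them Psma5, Psmb1, Psmd4 and Psmd5, also had B16F10-BrM lowest and E0771-BrM highest by mean level. Summed, the 3 immunoproteasome genes had 192, 190 and 196 CPM in libraries A, B and C of 482N1, 144, 137 and 135 in B16F10-BrM and 365, 353 and 342 in E0771-BrM, with no overlap between lines. All 3 were higher in E0771-BrM than in either other line, and in B16F10-BrM against 482N1 1 was lower and 2 were not called.

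Psmb10, the inducible catalytic subunit that replaces Psmb7, had 25.3, 23.8 and 24 CPM in 482N1, 23.9, 24.1 and 22.5 in B16F10-BrM and 48.2, 46.8 and 39.9 in E0771-BrM. The first lines overlapped (log2 difference -0.05 ± 0.12, adjusted p = 0.694), and E0771-BrM was 0.89 ± 0.11 above 482N1 and 0.94 ± 0.11 above B16F10-BrM (adjusted p = 1.68e-09 and 3.62e-10). Psmb7 was also higher in E0771-BrM, so the pair was read as a ratio. Psmb10 counts were 24.9, 22.1 and 24.2% of Psmb7 counts in libraries A, B and C of 482N1, 17, 20.8 and 19.6% in B16F10-BrM and 26.3, 34.2 and 22.2% in E0771-BrM. This ratio overlapped between E0771-BrM and 482N1, and its highest value, in library B of E0771-BrM, fell in the library where Psmb7 was low.

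Psme1 and Psme2 encode the activator that docks on the ends of the core. Psme1 had 137, 142 and 149 CPM in 482N1, 97.8, 90.3 and 92.2 in B16F10-BrM and 234, 230 and 219 in E0771-BrM. It was 1.53-fold lower in B16F10-BrM than in 482N1 (log2 difference -0.61 ± 0.08, adjusted p = 7.93e-10) and 2.43-fold higher in E0771-BrM than in B16F10-BrM (1.28 ± 0.08, adjusted p = 1.96e-20), and the lines did not overlap. Psme2 had 29.5, 23.6 and 22.9 CPM in 482N1, 22, 23 and 20.7 in B16F10-BrM and 82.5, 76.9 and 82.7 in E0771-BrM. Here the first lines overlapped (-0.21 ± 0.12, adjusted p = 0.1), and E0771-BrM stood 3.18-fold above 482N1 (1.67 ± 0.11, adjusted p = 4.06e-19) and 3.69-fold above B16F10-BrM (1.88 ± 0.11, adjusted p = 7.05e-21). The activator is a mixed ring of both proteins, and the counts of the pair were not in one proportion across lines. Psme2 had 17.8 ± 3.24% of the counts of Psme1 in 482N1, 23.5 ± 1.7% in the melanoma line and 35.5 ± 2.12% in the breast line (SD, n = 3), and E0771-BrM lay above all other libraries. RefSeq lists a near copy of Psme2 (Psme2b) that has no row in the table, so the level of Psme2 is uncertain if reads were shared.

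**Figure D3:**
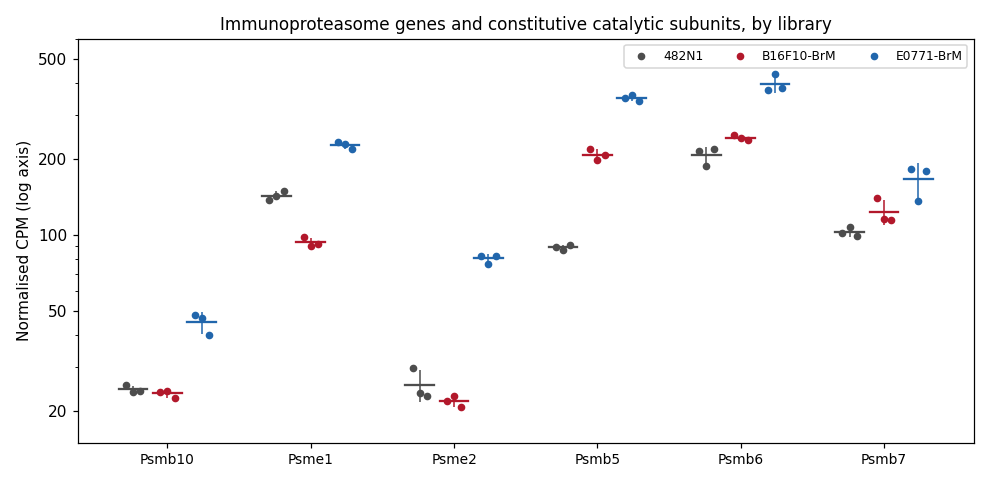
Normalised CPM (log axis) of the 3 immunoproteasome genes and of the 3 constitutive catalytic subunits in each library, by line; points are libraries, horizontal lines means and vertical bars SD (n = 3). The E0771-BrM libraries are highest for Psmb10 (39.9 to 48.2 CPM), Psme1 and Psme2, while B16F10-BrM lies with or below 482N1 in these genes and above it in Psmb5.

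Psme1 and Psme2 lie close together on chromosome 14 with 1 protein-coding gene, Emc9, between them. Their promoter windows, on the same RefSeq build and with the same limits as above, are shown because this pair differed most between E0771-BrM and B16F10-BrM among the immunoproteasome genes. Neither window held any of the motifs searched, so no letters are in capitals, and Psme2 has a second start site that also held none.

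Psme1 promoter, chr14:55578244-55578523, plus strand: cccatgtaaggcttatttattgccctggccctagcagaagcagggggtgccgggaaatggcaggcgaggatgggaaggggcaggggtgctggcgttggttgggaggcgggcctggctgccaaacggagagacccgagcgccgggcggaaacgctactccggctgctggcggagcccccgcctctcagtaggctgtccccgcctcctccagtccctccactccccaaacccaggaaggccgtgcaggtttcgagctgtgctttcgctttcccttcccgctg

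Psme2 promoter, chr14:55591072-55591351, minus strand: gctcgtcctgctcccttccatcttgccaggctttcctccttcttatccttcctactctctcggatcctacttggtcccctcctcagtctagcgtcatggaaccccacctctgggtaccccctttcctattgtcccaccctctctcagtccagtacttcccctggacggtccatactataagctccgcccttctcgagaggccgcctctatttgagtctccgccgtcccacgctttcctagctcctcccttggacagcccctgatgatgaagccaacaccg

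Genes of MHC class I processing and interferon signalling were read beside these values. Of 22 measured of 26 listed (Tap1, Tap2, Nlrc5 and Irf7 have no row and are not analysed here), 5 were higher and 15 lower in the melanoma line than in 482N1, 13 higher and 9 lower in E0771-BrM than in 482N1, and 16 higher and 4 lower in E0771-BrM than in B16F10-BrM. Over all tested genes, 38% were higher and 39.9% lower, 37.7% and 40.4%, and 37.2% and 36.5% in the same comparisons. The class I heavy chain gene H2-D1 had 52.1, 55.1 and 61.3 CPM in 482N1, 41.6, 36 and 38.2 in B16F10-BrM and 307, 264 and 291 in E0771-BrM. This is the order of lines seen for Psme1. The interferon-activated factor gene Irf1 also had this order, with log2 differences from 482N1 of -0.82 ± 0.14 in B16F10-BrM and 0.34 ± 0.13 in E0771-BrM (adjusted p = 7.56e-07 and 0.0148). Irf9, a subunit of the type I interferon factor, was 1.90 lower in B16F10-BrM (log2 difference -1.90 ± 0.16) and 1.59 ± 0.12 higher in E0771-BrM than in 482N1 (adjusted p = 2.93e-15 and 1.22e-16). The order was not shared by the light chain gene B2m, which was higher than in 482N1 by 1.61 ± 0.08 in B16F10-BrM and 1.83 ± 0.08 in E0771-BrM (adjusted p = 2.42e-23 and 2.67e-25).

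Immune cells express immunoproteasome genes, so myeloid markers were read beside them. Only 2 of 9 were in the table, Cd14 and Cd68. They summed to 24.7 to 34.2 CPM in 482N1, 0.502 to 0.625 in B16F10-BrM and 21.9 to 27.3 in E0771-BrM, with Cd14 at 0 in all B16F10-BrM libraries. Cd68 alone was highest in E0771-BrM (13.6 to 17.4 CPM, against at most 3.48 elsewhere), as Psme2 was, and its part in the result was not tested. Ptprc, the general leukocyte marker, has no row and is not analysed here.

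The other activators and the inhibitor each behaved in their own way. Psme3, a nuclear relative of Psme1 that acts without ubiquitin, had 36.1, 39.1 and 42.5 CPM in 482N1, 90.7, 89.1 and 87.3 in B16F10-BrM and 92.6, 87.7 and 91.6 in E0771-BrM. The latter lines overlapped and both lay above 482N1 (log2 differences 1.18 ± 0.09 and 1.21 ± 0.09, adjusted p = 1.71e-16 and 9.95e-17). With Psme1 low in B16F10-BrM, Psme3 had 95.4 ± 2.98% of the counts of Psme1 there, against 27.4 ± 1.08% in 482N1 and 39.9 ± 1.83% in E0771-BrM (SD, n = 3). Psme4, a large single-chain activator, had 86.5, 94 and 91 CPM, then 118, 117 and 137, then 238, 247 and 255, rising from line to line without overlap. Psmf1, an inhibitor of the core, had 42.1 to 50.7, 44.2 to 49.7 and 47 to 58.4 CPM and was not called in any comparison (adjusted p = 0.909, 0.0617 and 0.0818). Against 482N1 its log2 difference in E0771-BrM was 0.21 ± 0.10, and it was called without library A of 482N1 (0.28, adjusted p = 0.0239) or library C of E0771-BrM (0.29, adjusted p = 0.0182), with 0.0117 to 0.275 over 19 alternatives. Without library C of E0771-BrM it was also called against B16F10-BrM (0.28, adjusted p = 0.0246, range 0.0246 to 0.333).

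Core assembly chaperones work as pairs, Psmg1 with Psmg2 and Psmg3 with Psmg4, and guide the alpha ring into place. All 4 were higher in B16F10-BrM than in 482N1 (median log2 difference 1.05), as were 38% of all tested genes. In E0771-BrM, however, the partners of each pair parted. Psmg2 had 14.4, 10.5 and 11.3 CPM in 482N1, 28.5, 27.9 and 32.5 in B16F10-BrM and 26.5, 24.5 and 23.8 in E0771-BrM. Psmg1 had 7.61, 8.79 and 7.99 CPM, then 16.2, 13.6 and 12.6, then 6.22, 6.6 and 7.61, so that every E0771-BrM library lay at or below the lowest of 482N1. For Psmg1 the log2 difference of E0771-BrM was -0.26 ± 0.20 from 482N1 (adjusted p = 0.232) and -1.06 ± 0.18 from B16F10-BrM (adjusted p = 1.52e-06), whereas Psmg2 was 1.05 ± 0.14 above 482N1 (adjusted p = 4.52e-09).

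The second pair parted likewise. Psmg3 had 15.3, 13.5 and 11.8 CPM in 482N1, 31.1, 32.7 and 36.1 in B16F10-BrM and 32.1, 31.6 and 33.4 in E0771-BrM. Psmg4 had 19.2, 22.6 and 22.9 CPM, then 36.2, 38.5 and 35.5, then 22.7, 16 and 20.9, with libraries A and C of E0771-BrM among those of 482N1 and library B below them. The log2 difference of these lines was -0.12 ± 0.13 (adjusted p = 0.398), and it was called lower when library B alone stood for each of them (-0.50, adjusted p = 0.0382, range over 19 alternatives 0.0382 to 0.926). Psmg4 had 163 ± 35% of the counts of Psmg3 in 482N1, 111 ± 10.8% in the melanoma line and 61.3 ± 10.2% in the breast line (SD, n = 3). The plot of assembly genes by library shows the partners of both pairs side by side.

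**Figure D4:**
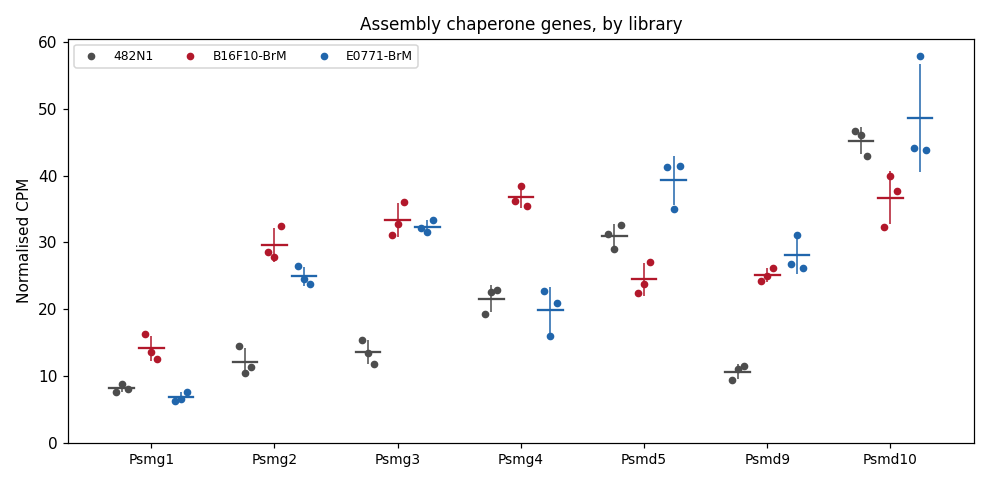
Normalised CPM (linear axis from 0) of the 7 assembly chaperone genes in each library, by line; points are libraries, horizontal lines means and vertical bars SD (n = 3). In Psmg1 the E0771-BrM libraries lie at or below those of 482N1, in Psmg4 they overlap them with library B below, and in Psmg2 and Psmg3 they lie above them (23.8 to 33.4 CPM against 10.5 to 15.3 CPM).

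Cap assembly chaperones hold the ATPases before the base is complete. Psmd9 had 9.42, 11 and 11.5 CPM in 482N1, 24.2, 25 and 26.2 in B16F10-BrM and 26.8, 31.2 and 26.2 in E0771-BrM, and the latter lines did not differ beyond their spread (log2 difference 0.16 ± 0.12, adjusted p = 0.238). Psmd5 had 31.2, 29 and 32.6 CPM, then 22.4, 23.8 and 27.1, then 41.4, 35 and 41.5, with B16F10-BrM lowest. In B16F10-BrM against 482N1, Psmd5 was -0.34 ± 0.12 and Psmd10 -0.31 ± 0.11 on the log2 scale (adjusted p = 0.00897 and 0.0123). Neither was called without library A of B16F10-BrM (adjusted p = 0.0566 and 0.104, ranges over 19 alternatives 0.00419 to 0.177 and 0.00711 to 0.104).

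The 2 genes that share only the name pattern differed from each other. Psmc3ip, a meiotic recombination protein, was low, at 4.64, 2.05 and 3.68 CPM in 482N1, 14.5, 14.1 and 16.7 in B16F10-BrM and 10.3, 10.1 and 10.3 in E0771-BrM. Like most of the set it was higher than in 482N1 in both lines (log2 differences 2.13 ± 0.21 and 1.58 ± 0.23, adjusted p = 1.59e-12 and 2.35e-08), and it was highest in B16F10-BrM. Psme3ip1, which binds Psme3, had 50.2, 43.6 and 39.8 CPM, then 41, 44.2 and 47, then 29.7, 29.8 and 30.4, lowest in E0771-BrM (-0.57 ± 0.11 from 482N1, adjusted p = 8.58e-06).

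Levels can be compared between genes only per transcript length, here as CPM per kb of the median annotated coding transcript, for the 45 genes with a length. The core subunits are present in equal copies in the particle, but their transcripts were far from equal. Psma7 was highest with 502, 757 and 752 CPM per kb in 482N1, B16F10-BrM and E0771-BrM, and Psmb2 lowest with 17.2, 20.1 and 24.7 CPM per kb. Psma5 was also low, at 34.1, 28.4 and 41.1 CPM per kb. Among the constitutive catalytic genes, Psmb6 was first in each line (260, 305 and 497 CPM per kb), Psmb5 rose from 117 to 274 and 459 and Psmb7 from 88.6 to 107 and 144. Psmb10, at 18.6, 17.9 and 34.3 CPM per kb, stayed below the constitutive gene it replaces in each line. Psme1 (201, 131 and 320 CPM per kb) exceeded its ring partner Psme2 (28.9, 24.9 and 91.9). Lengths come from GENCODE M21 on GRCm38, and mapping differences between genes were not measured.

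Partners of the proteasome outside the name pattern were also mostly higher in each line than in 482N1. Of 16 measured of 17 listed, 12 were higher and 2 lower in the melanoma line than in 482N1, 12 higher and 4 lower in E0771-BrM than in 482N1, and 11 higher and 3 lower in E0771-BrM than in B16F10-BrM. All tested genes gave 38% higher and 39.9% lower, 37.7% and 40.4%, and 37.2% and 36.5% in these comparisons. Pomp, the maturation factor of the core, had 221, 190 and 182 CPM in 482N1, 500.2, 572 and 479 in B16F10-BrM and 936, 1080 and 946 in E0771-BrM. It kept the order of lines of the core genes, with log2 differences from 482N1 of 1.39 ± 0.08 and 2.32 ± 0.08 (adjusted p = 4.82e-20 and 8.19e-28). Sem1, the small lid subunit named outside the pattern, had 81.9, 81.4 and 85.1 CPM in 482N1, 219, 182 and 213 in B16F10-BrM and 75.2, 58.2 and 79.9 in E0771-BrM. It thus had B16F10-BrM on top, as did Psmd8, and the log2 difference of E0771-BrM from B16F10-BrM was -1.53 ± 0.09 (adjusted p = 4.25e-19). The shuttle gene Ubqln2 had its lowest level in B16F10-BrM (5.27 to 8.85 CPM against 31.7 to 41.7 elsewhere), with a log2 difference from 482N1 of -2.29 ± 0.15 (adjusted p = 3.49e-19).

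Genes that control proteasome synthesis did not move in one direction. Of 11 in the recovery response list, 3 were higher and 3 lower in the melanoma line than in 482N1, 5 higher and 6 lower in E0771-BrM than in 482N1, and 4 higher and 4 lower in E0771-BrM than in B16F10-BrM. Beside these counts, 77.8%, 78.1% and 73.7% of all tested genes were called in the 3 comparisons. Nfe2l1, the factor that raises proteasome genes when activity falls, had 86.2, 96.4 and 93 CPM in 482N1, 70.9, 60.3 and 72 in B16F10-BrM and 77.9, 73.1 and 81.2 in E0771-BrM. Its transcript was highest where proteasome genes were lowest, with log2 differences from 482N1 of -0.44 ± 0.09 and -0.25 ± 0.09 (adjusted p = 1.75e-05 and 0.00961). The other lines did not have this inverse order: Nfe2l1 was 0.19 ± 0.09 higher in E0771-BrM than in B16F10-BrM (adjusted p = 0.0514, not called), where proteasome genes were also higher in sum. A relation between Nfe2l1 and the proteasome genes was not tested. The activity of Nfe2l1 is set by protein processing and was not measured. Nfe2l2, the related stress factor, was 1.37 ± 0.08 lower in E0771-BrM than in 482N1 on the log2 scale (difference -1.37, adjusted p = 1.2e-21). Of the small Maf partners, Maff differed with -4.32 ± 0.14 and -2.05 ± 0.12 from 482N1 in B16F10-BrM and E0771-BrM (adjusted p = 1.05e-30 and 2.04e-21) and Mafk with 1.97 ± 0.14 in E0771-BrM (adjusted p = 6.82e-18), while Mafk was not called in B16F10-BrM (-0.14 ± 0.16, adjusted p = 0.422). Mafg differed from 482N1 by 0.40 in B16F10-BrM and by 0.53 in E0771-BrM.

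Single genes of substrate extraction and ubiquitin supply also differed between lines. Vcp, the segregase that extracts ubiquitylated proteins, was higher than in 482N1 by 1.43 ± 0.07 in B16F10-BrM and 1.57 ± 0.07 in E0771-BrM on the log2 scale (adjusted p = 2.36e-24 and 7.58e-26). Of the 12 genes of Vcp and its cofactors 6 were higher and 3 lower in the melanoma line than in 482N1, and 9 higher and 3 lower in E0771-BrM than in 482N1. Between E0771-BrM and B16F10-BrM 7 were higher and 2 lower. Among 12 ubiquitin and E1 enzyme genes, 6 were higher and 5 lower in the first of these comparisons, 5 and 4 in the second and 6 and 5 in the last. For both lists the background was 77.8%, 78.1% and 73.7% of all tested genes called, and a departure from it was not tested. The polyubiquitin gene Ubb had 114, 123 and 164 counts in 482N1, 8055, 6139 and 7119 in the melanoma line and 5038, 5277 and 5238 in E0771-BrM. It was 48.5-fold and 38.3-fold above 482N1 (log2 differences 5.60 ± 0.10 and 5.26 ± 0.10, adjusted p = 3.65e-42 and 6.7e-41). Ubb is made of repeats of near-identical units that other genes share, so its counts depend on how shared reads were assigned.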

How the data were processed

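Poly(A)-selected, stranded TruSeq libraries were made from the 3 lines, 3 libraries each, per the labels' protocols. The authors deposited raw read counts per gene symbol. The submitters' processing notes name FastQC, TopHat2 2.0.10, Bowtie 1.0.0, SAMtools 0.1.19, Cufflinks 2.2.1 and build GRCm39. The counting tool, its strand setting and the annotation are not given in the sources used here.

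The analysis used edgeR 4.0.16 under R 4.3.3. The filterByExpr filter removed 9 genes and left 11037, sizes were scaled by TMM, and a robust quasi-likelihood model took all 9 libraries, with 1 coefficient per line (common dispersion 0.0059). Lines were compared by 2-sided quasi-likelihood F tests, adjusted by Benjamini-Hochberg over all tested genes at 0.05, and by glmTreat against 1.5-fold. Log2 differences are coefficients ± SE. Replicate libraries differed beyond sampling noise (chi-square per degree of freedom 3.98 to 7.67), so none was merged.

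The genes, lists and the rule for named genes were chosen with earlier results of these data known. Values in every library are given for the immunoproteasome and constitutive catalytic genes and, per role and comparison, for the 2 called genes with the largest difference (1 in roles under 4 genes). From each list up to 4 called genes a comparison, and fixed genes, were eligible. Psma5, Psmc1, Psmd14 and Psme3ip1 are named in full, and Psma7, Psmb1, Psmb2, Psmc3, Psmd4, Psmd6, Psmd7, Psmd10, Psmd12, Psmf1 and Cd68 in part, after their values were seen. Some single genes of the lists are not reported here. Motifs were searched in RefSeq windows on GRCm38.p6. Tested on simulated data for B16F10-BrM against 482N1 (11003 genes), the fit recovered 80.6% of 1.5-fold, 97% of 2-fold and 100% of 4-fold changes, and 8.87% of its calls were false. Only 200 genes were changed there, none with a low mean level, while 73.7 to 78.1% of genes were called in the real data. These rates therefore need not hold for the calls reported here. Ranges over 19 alternatives leave out glmTreat. Alternatives were DESeq2 1.42.0, limma-voom (limma 3.58.1), other size factors and filters, a replicate block, fits without each library in turn or without the third line, fits with library B alone for 482N1 and E0771-BrM, and removal of ribosomal RNA genes.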

Additional observations from a re-analysis of the deposited data

How the results depend on the processing

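Each of the 46 genes was refitted in each of 3 comparisons under 20 alternatives. Of 2760 values, 2650 kept their direction and side of the threshold, 93 lost a call, 16 gained one and 1 reversed: Psma5 in E0771-BrM against 482N1 gave -0.055 (adjusted p = 0.804) when 482N1 and E0771-BrM were each reduced to library B, a fit that borrows the spread of B16F10-BrM. The test against 1.5-fold, which asks for more than any difference, accounts for 50 of the 93. With it, B16F10-BrM against 482N1 called 4 core, 10 cap and 0 immunoproteasome genes and 5400 of all genes. E0771-BrM against 482N1 called 8 core genes and 5343 of all, and E0771-BrM against B16F10-BrM 6 core and 7 cap genes and 4734 of all. Every other count of called core, cap and immunoproteasome genes, and of all genes, stayed within 1.5 times its reported value. Upper-quartile scaling moved the median log2 difference of all genes by at most 0.0606.

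The letters A, B and C of the libraries were not treated as pairs, since same-letter correlations ran from -0.0099 to 0.0898 and none passed 0.1. However, 7 of 9 libraries correlated best with their own letter. With the letter as a replicate block, 12, 14 and 12 core genes and 8595, 8623 and 8162 of all genes were called in the 3 comparisons, and no call among the 46 genes changed. Genes with few reads, such as Psmb2 and Psmg1, had the widest errors. Genes outside the 46 were not refitted one by one.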
